A study of Homo sapiens with 9 samples.

Results

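The genes encoding the subunits, activators, inhibitor and assembly chaperones of the human proteasome were followed in SH-SY5Y cells after exposure to citrinin. Members were all genes whose symbol is PSMA, PSMB, PSMC, PSMD, PSME, PSMF or PSMG plus a number and nothing more, which gave 48 of the 61487 gene identifiers in the count tables. Pseudogenes were left out by that rule, as were 53 related symbols in all, 44 of them pseudogenes. Of the 48 genes, 46 had enough reads to be tested, among 17806 genes tested. PSMA8 and PSMB11 did not. SH-SY5Y is a neuroblastoma line, derived from 1 human tumour, whose cells resemble immature neurons of the sympathetic nervous system. The cells spent 72 h in serum-containing MEM/F12 medium with vehicle (0 µM), 10 µM citrinin or 20 µM citrinin. Each of the 3 groups held 3 libraries of total RNA, 9 in all. Citrinin is a kidney-toxic product of food moulds, and the series asked how it alters the transcriptome of such neuron-like cells.

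The proteasome is the large protease that degrades proteins tagged with ubiquitin. Its barrel-shaped core particle, the 20S, is built of rings of alpha (PSMA) and beta (PSMB) subunits, and 3 beta subunits carry the protease activity. The 19S regulatory particle caps the core. It holds a ring of ATPases (PSMC) that unfolds substrates, and non-ATPase subunits (PSMD) that bind ubiquitin chains and cut them off. In cells exposed to interferon, PSMB8, PSMB9 and PSMB10 replace the constitutive catalytic subunits and form the immunoproteasome. The PSME proteins are activators that open the core, and PSMF1 is an inhibitor. The PSMG proteins with PSMD5, PSMD9 and PSMD10 are assembly chaperones that are not part of the finished enzyme. Transcription of most subunit genes is coordinated, and the transcription factor NFE2L1 raises it when proteasome activity falls short. The related factor NFE2L2, or NRF2, which answers oxidative stress, can also raise it.

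The libraries held 15678443 to 19604367 reads assigned to genes, of which 76459 to 95683, or 0.451% to 0.500%, fell on the proteasome genes. Levels are given as counts per 1000000 gene reads with TMM scaling (CPM), or per kilobase of annotated exon as well (RPKM) where genes are compared with each other. A count of 3 reads, taken as the limit of detection, equalled 0.153 to 0.191 CPM. Same-numbered libraries were alike. Deviations from the group means correlated at r of 0.457 to 0.685 for same-numbered libraries, against -0.545 to 0.139 for libraries with different numbers. Each comparison of doses is therefore given from 2 fits over all genes, the planned one without and one with the replicate number as a block. "Rose" and "fell" are kept for an adjusted p below 0.05 (edgeR quasi-likelihood test, Benjamini-Hochberg). All 12 markers of sympathetic neuroblastoma cells fixed for the check were detected, led by HAND2 at 1001 CPM. Of these 12, 8 fell at 20 µM against vehicle in the blocked fit and none rose, beside 2.21% of all genes called in that fit, and their summed level was 2549 to 3385 CPM at 20 µM and 3114 to 3927 CPM in vehicle. Of 12 markers of the substrate-adherent mesenchymal cells that such cultures can hold, 4 rose and none fell, while 7 were negative and the median log2 fold change was -0.03, with sums of 3844 to 5527 CPM at 20 µM and 3499 to 5147 CPM in vehicle. Of 6 genes of cycling cells 2 fell, with sums of 923 to 1018 CPM at 20 µM and 1007 to 1220 CPM in vehicle. Without the block 0 of the genes in these 3 lists passed, beside 0.0% of all genes. Epithelial markers summed to 41.0 to 46.6 CPM at 20 µM and 34.1 to 50.1 CPM in vehicle, and Schwann and glial markers to 9.15 to 9.92 CPM at 20 µM and 6.54 to 9.98 CPM in vehicle. The 8 immune markers summed to 1.66 to 3.55 CPM at 20 µM and 1.02 to 2.45 CPM in vehicle, and each of the 8 had reads in at least 1 library. The part of these changes in the results below was not tested. In such bulk libraries, fewer cells of a type and less RNA per cell cannot be told apart.

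Transcript levels per length differed widely within this one enzyme. PSMB4, a non-catalytic beta subunit, stood highest at 173 RPKM on average over the 9 libraries, with a range of 163 to 180 RPKM. PSMA7, an alpha subunit, followed at 102 RPKM (96.8 to 112 RPKM), and then PSMD4, a ubiquitin receptor of the 19S particle, at 88.1 RPKM (82.6 to 93.9 RPKM). The ranges of these 3 genes did not overlap with each other. The next places were taken by PSMB3 at 74.8 RPKM, PSMB5 at 69.6 RPKM, PSMB7 at 69.3 RPKM and PSMB1 at 66.3 RPKM. Their ranges overlapped, so that their order cannot be read beyond the spread. Medians over the members of a subcomplex were 69.3 RPKM for the 7 constitutive beta subunits, 37.2 RPKM for the 6 ATPases and 26.5 RPKM for the 11 non-ATPase subunits. They were 28.1 RPKM for the 4 activators, 13.9 RPKM for the 7 alpha subunits and 12.2 RPKM for the 4 PSMG chaperones. Per length of the transcript with the longest coding sequence the medians were higher and partly in another order, at 114 RPKM for the beta subunits, 73.3 RPKM for the activators, 62.1 RPKM for the non-ATPase subunits and 55.1 RPKM for the ATPases. They were 23.2 RPKM for the PSMG chaperones and 21.3 RPKM for the alpha subunits. Both alpha medians include PSMA1, PSMA2 and PSMA6, at 3.26, 0.619 and 0.795 RPKM per kilobase of annotated exon. These genes share most of their coding bases with another gene, as given below, and the part of this in the medians was not tested.

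The lowest values among the tested genes were those of PSMD9, an assembly chaperone of the 19S base, at 0.566 RPKM (0.481 to 0.755 RPKM), PSMA2 at 0.619 RPKM and PSMA6 at 0.795 RPKM. PSMA2 and PSMA6 are obligatory members of the alpha ring, and their values lie beside those of 102 RPKM for PSMA7 and 30.1 RPKM for PSMA3. The annotation bears on these values. In GENCODE 29, a second protein-coding gene on the same strand shares 97.1% of the coding bases of PSMA2, 88.6% of PSMA1, 70.4% of PSMA6, 58.7% of PSMD9 and 58.3% of PSMB10, and for the other 43 genes the share was 0. STAR counts a read that fits 2 genes for neither. The neighbours themselves received 0, 4, 21, 7 and 243 reads over 9 libraries for PSMA1, PSMA2, PSMA6, PSMD9 and PSMB10. For PSMD9 these are the reads of AC069503.2 alone. The annotation the authors counted with is not given, reads lost to these overlaps were not measured, and their part in the low levels was not tested. Reads that lie on genes of both strands are likewise left out of the joint count. Adding the counts of each strand, which gives such reads to both genes, gave 2.36 times the reads of the joint count for PSMD7, 2.07 times for PSMC1, 1.70 times for PSMC5 and 1.66 times for PSMA2, and at most 1.14 times for every other member. The order also moves with the length used. Per length of the transcript with the longest coding sequence, PSMB4, PSMD4 and PSMA7 remained the 3 highest and PSMD9 and PSMA2 the 2 lowest, but PSMG4 moved from place 43 to 31 and PSMD6 from place 38 to 18.

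**Figure D1:**
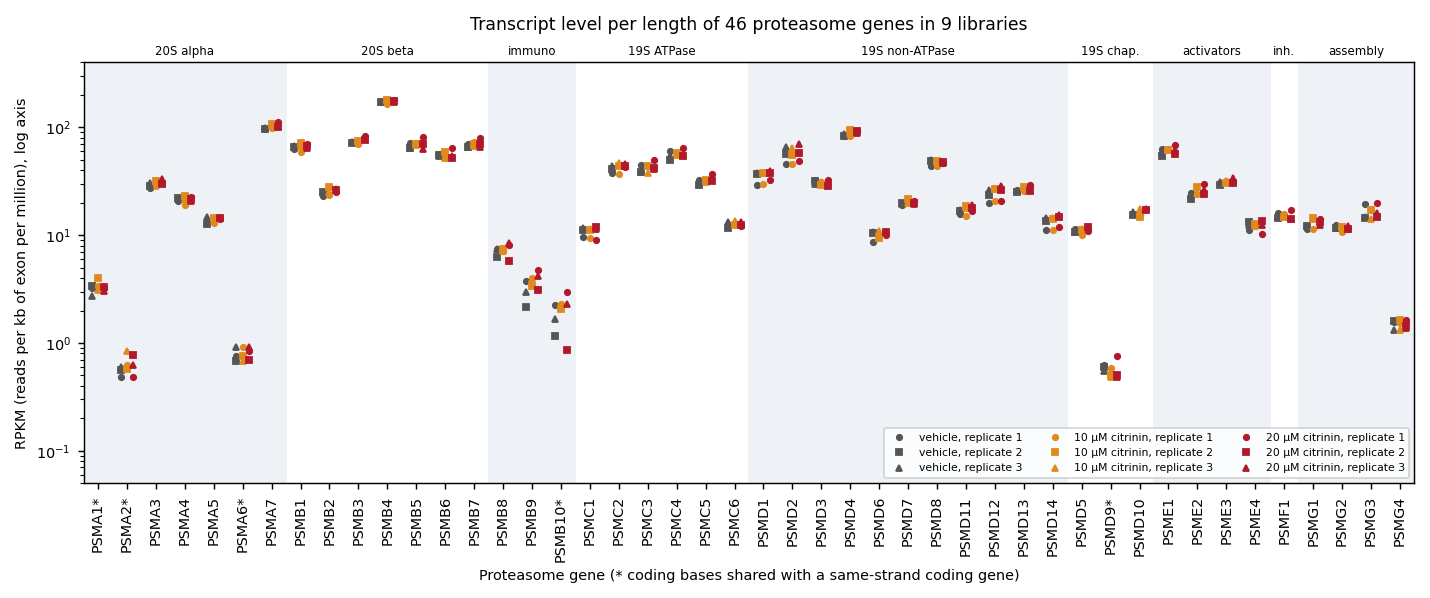
Level per length of the 46 tested proteasome genes in each library (vertical axis, RPKM on a log scale), grouped by subcomplex; colours mark the dose and symbols the replicate number. PSMB4 stands highest at 163 to 180 RPKM, and 4 of the 5 genes with an asterisk, which share coding bases with a same-strand coding gene, stay at or below 2.96 RPKM in every library.

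PSMA8, the alpha subunit of the testis proteasome, had 1 read in the 9 libraries, in 20 µM replicate 1. PSMB11, the catalytic subunit of the thymus proteasome, had 0 reads, which at 3 reads per library allows at most 0.153 to 0.191 CPM. These limits cover counting error only, since copies made by PCR were not told apart.

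Transcripts of the constitutive catalytic subunits exceeded those of the immunoproteasome. PSMB5, which cuts after hydrophobic residues, averaged 71.7 ± 9.07 RPKM at 20 µM and 66.8 ± 4.01 RPKM in vehicle (SD, n = 3 each), and its immunoproteasome counterpart PSMB8 averaged 7.45 ± 1.43 RPKM and 7.07 ± 0.670 RPKM. PSMB6, which cuts after acidic residues, averaged 56.6 ± 6.21 RPKM at 20 µM and 55.6 ± 1.07 RPKM in vehicle, and its counterpart PSMB9 averaged 4.02 ± 0.847 RPKM and 2.95 ± 0.783 RPKM. PSMB7, which cuts after basic residues, averaged 71.3 ± 6.93 RPKM at 20 µM and 67.1 ± 2.85 RPKM in vehicle, and its counterpart PSMB10 averaged 2.04 ± 1.07 RPKM and 1.70 ± 0.554 RPKM. The 3 immunoproteasome genes together reached 6.77%, 5.19% and 6.59% of the 3 constitutive ones in vehicle replicates 1, 2 and 3. At 10 µM the shares were 6.81%, 6.47% and 7.02%, and at 20 µM they were 7.10%, 5.07% and 8.15%. The doses overlapped, and replicate 2 was the lowest library at each of them. The mean over 9 libraries was 6.57%, or 11.5% per length of the transcript with the longest coding sequence, so the share itself is known only roughly. Among these genes PSMB10 alone shares coding bases with a same-strand gene (58.3%). Adding the counts of each strand gave 1.14 times the joint reads for PSMB8. The part of these overlaps in the share was not tested. PSMB9 as a percent of PSMB6 was 7.50%, 5.93% and 7.74% at 20 µM and 6.58%, 3.88% and 5.47% in vehicle. It was higher at 20 µM in each same-numbered pair, and the groups overlapped.

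**Figure D2:**
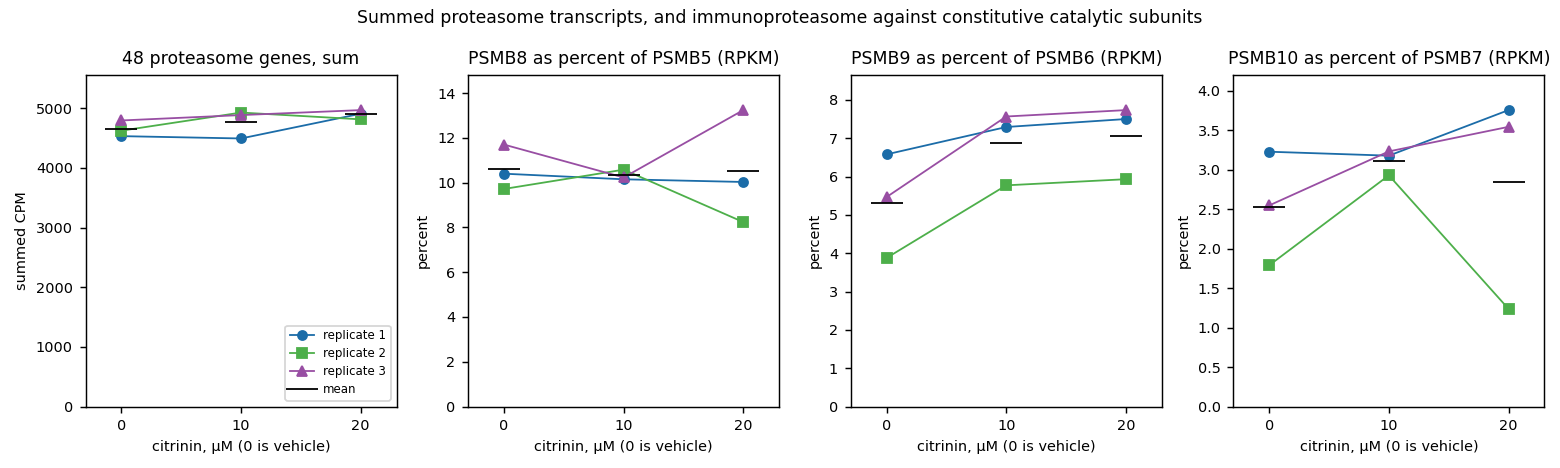
Summed CPM of the 48 proteasome genes (left) and each immunoproteasome gene as a percent of its constitutive counterpart in RPKM, against citrinin dose in µM (0 is vehicle); lines join libraries with the same replicate number and bars are means. The 20 µM sums of 4815 to 4970 CPM lie above the vehicle sums of 4533 to 4796 CPM, and the 10 µM sums run from 4494 to 4928 CPM. Replicate 2 is lowest for PSMB9 and PSMB10 at every dose.

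At 20 µM citrinin against vehicle, no proteasome gene passed the test in either fit, but small positive differences prevailed across the family. Without the block 0 of 46 were called, beside 0.0% of all genes tested, and the smallest adjusted p among the 46 was 1. With the block 0 of 46 were called, beside 2.21% of all genes. The unadjusted p was below 0.05 for 1 gene without the block, PSMC5, beside 2.17% of all genes, and for 12 genes with it, beside 13.1% of all genes; DESeq2 and limma-voom, with and without the block, also called 0. The log2 fold change was positive for 39 of the 46 genes, beside 49.4% of all genes with the block and 49.7% without it. Its median was 0.08 over the 46 genes and -0.0016 over all genes. These genes are regulated together and share libraries, so the 39 are not independent of each other. In replicate 1, 41 of the 46 genes were higher in the 20 µM library than in its vehicle partner, with a median difference of 0.13 in log2(CPM + 1). In replicate 2 this held for 34 genes with a median of 0.06, and in replicate 3 for 32 genes with a median of 0.05. Over all genes the share higher was 49.7% to 50.2% in the 3 pairs.

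The intervals give a range for the difference of each gene taken alone and are not adjusted for the number of genes. They reflect only how these samples vary, which may be technical. With the block, the 95% confidence interval of the fold change lay wholly within 1.5-fold either way for 43 of the 46 genes, beside 68.3% of all genes, and within 1.2-fold for 35 of them, beside 38.6% of all genes. The 3 genes outside the wider bound, named after their values were seen, were PSMB9 and PSMA2 and PSMB10 with as few as 43 and 28 reads in a library. Without the block 43 genes lay within 1.5-fold and 15 within 1.2-fold, beside 54.9% and 13.1% of all genes. At 10 µM against vehicle the blocked intervals lay within 1.5-fold for 43 genes and within 1.2-fold for 38, beside 70.3% and 45.2% of all genes.

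The sum over all 48 genes was 4909, 4815 and 4970 CPM in 20 µM replicates 1, 2 and 3, against 4533, 4625 and 4796 CPM in the vehicle replicates. Every 20 µM library stood above every vehicle library, by 4815 against 4796 CPM at the closest, and the means had a ratio of 1.05. The 10 µM sums were 4494, 4928 and 4886 CPM in replicates 1, 2 and 3, with replicate 1 below every vehicle library. The constitutive beta ring summed to 1142, 1067 and 1047 CPM at 20 µM and 1040, 1036 and 1039 CPM in vehicle. The ATPase ring summed to 730.5, 689 and 712 CPM at 20 µM and 675, 639 and 677 CPM in vehicle. Both rings were without overlap between the groups, as were the 4 activators, with 481 to 505 CPM at 20 µM and 458 to 476 CPM in vehicle. The 19S chaperones PSMD5, PSMD9 and PSMD10 were also without overlap, at 98.2 to 100 CPM against 90.7 to 94.2 CPM. The groups overlapped for the alpha ring, at 522 to 550 CPM against 494 to 523 CPM, and for the 11 non-ATPase subunits, at 1628 to 1840 CPM against 1512 to 1762 CPM. They overlapped also for the immunoproteasome genes, at 28.5 to 44.6 CPM against 27.7 to 37.9 CPM, and for the 4 PSMG chaperones, at 115 to 130 CPM against 113 to 124 CPM. How often sums over other sets of genes separate in this way was not tested. The ratio of the means was 1.05 for the alpha ring, 1.05 for the beta ring, 1.07 for the ATPase ring and 1.05 for the non-ATPase subunits.

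The 6 genes with the smallest p in the blocked fit were PSMB9, PSMC5, PSME2, PSMD4, PSMB3 and PSMC2. PSMB9, the interferon-inducible catalytic subunit, had 14.7, 9.55 and 12.8 CPM in 20 µM replicates 1, 2 and 3, against 11.5, 6.63 and 9.15 CPM in the vehicle replicates. Replicate 2 was the lowest library in both groups, which overlapped, and the 20 µM library was the higher one in 3 of 3 pairs. The log2 fold change was 0.45 ± 0.12 (SE) with the block, a 1.36-fold difference with an interval of 1.15 to 1.62, and edgeR's adjusted p was 0.052. Without the block the values were 0.44 ± 0.22 and an adjusted p of 1. The blocked result lay at the threshold: the adjusted p was 0.0485 with library totals as the scale, 0.03005 without the filter on low counts, 0.0323 without 10 µM replicate 1 and 0.0194 without 10 µM replicate 2. With the block it was 0.132 in DESeq2, 0.0586 in limma-voom and 0.0504 in edgeR with DESeq2 size factors. In edgeR it ran from 0.0194 to 0.417 over the 9 blocked fits that leave out 1 library. PSMB9 lies in the class II region of the major histocompatibility complex, with an annotated span of chr6:32844136-32859585 (GRCh38, GENCODE 29). TAP1, the peptide transporter gene, is transcribed in the opposite direction from a promoter region that it shares with PSMB9. TAP1 averaged 23.9 ± 1.81 CPM at 20 µM and 24.1 ± 3.23 CPM in vehicle, and its blocked log2 fold change was -0.01 ± 0.09.

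PSMC5, an ATPase of the ring that unfolds substrates, had 165, 143 and 154 CPM at 20 µM, against 145, 130 and 135 CPM in vehicle. Replicate 1 was the highest library in both groups, and they overlapped by 20 µM replicate 2 alone. The log2 fold change was 0.17 ± 0.05 with the block, with an edgeR adjusted p of 0.0689, and that p was 0.0155 without 10 µM replicate 2, 0.034 without 10 µM replicate 1 and 0.0497 without the filter on low counts. Over the 9 blocked fits that leave out 1 library it ran from 0.0155 to 0.436. The blocked adjusted p of PSMC5 was 0.148 in DESeq2, 0.0866 in limma-voom and 0.0665 in edgeR with DESeq2 size factors. Part of its exons, 19.5%, overlap genes of the opposite strand, and the reads there were not counted. PSME2, a subunit of the interferon-inducible activator that favours peptides for antigen presentation, had 107, 85.5 and 93.9 CPM at 20 µM, against 87.3, 76.95 and 82.6 CPM in vehicle. The groups overlapped, and the log2 fold change was 0.21 ± 0.07, with an edgeR adjusted p of 0.189. The difference was 0.13 without 20 µM replicate 1 (adjusted p = 0.502). It passed without 20 µM replicate 2 (0.30, adjusted p = 0.0388), without 10 µM replicate 1 (adjusted p = 0.0475) and without 10 µM replicate 2 (adjusted p = 0.00988). It also passed without the filter on low counts (adjusted p = 0.0199) and without all replicate 2 libraries (adjusted p = 0.0283). Over the 9 blocked fits that leave out 1 library its adjusted p ran from 0.00988 to 0.649. The blocked adjusted p of PSME2 was 0.270 in DESeq2, 0.171 in limma-voom and 0.184 in edgeR with DESeq2 size factors.

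PSMD4, a ubiquitin receptor, had 281, 279 and 270 CPM at 20 µM, against 253, 250 and 261 CPM in vehicle. The groups did not overlap, and the log2 fold change was 0.12 ± 0.05 with the block (edgeR adjusted p = 0.256). PSMB3, a non-catalytic beta subunit, had 97.0, 89.0 and 94.0 CPM at 20 µM, against 86.0, 83.8 and 85.5 CPM in vehicle. It too was without overlap, with a log2 fold change of 0.13 ± 0.05 (edgeR adjusted p = 0.260). PSMC2, another ATPase, had 153, 155 and 163 CPM at 20 µM, against 133, 147 and 154 CPM in vehicle. Its groups overlapped, and the log2 fold change was 0.12 ± 0.05 (edgeR adjusted p = 0.269). Across the family 5 genes were without overlap and higher at 20 µM, beside 3.41% of all genes, and 0 were lower, beside 3.35% of all genes. Besides PSMD4 and PSMB3 these were PSMA7, PSMD10 and PSMG1, named after their values were seen. PSMA7 had 196, 176 and 181 CPM at 20 µM, against 169, 171 and 174 CPM in vehicle.

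**Figure D3:**
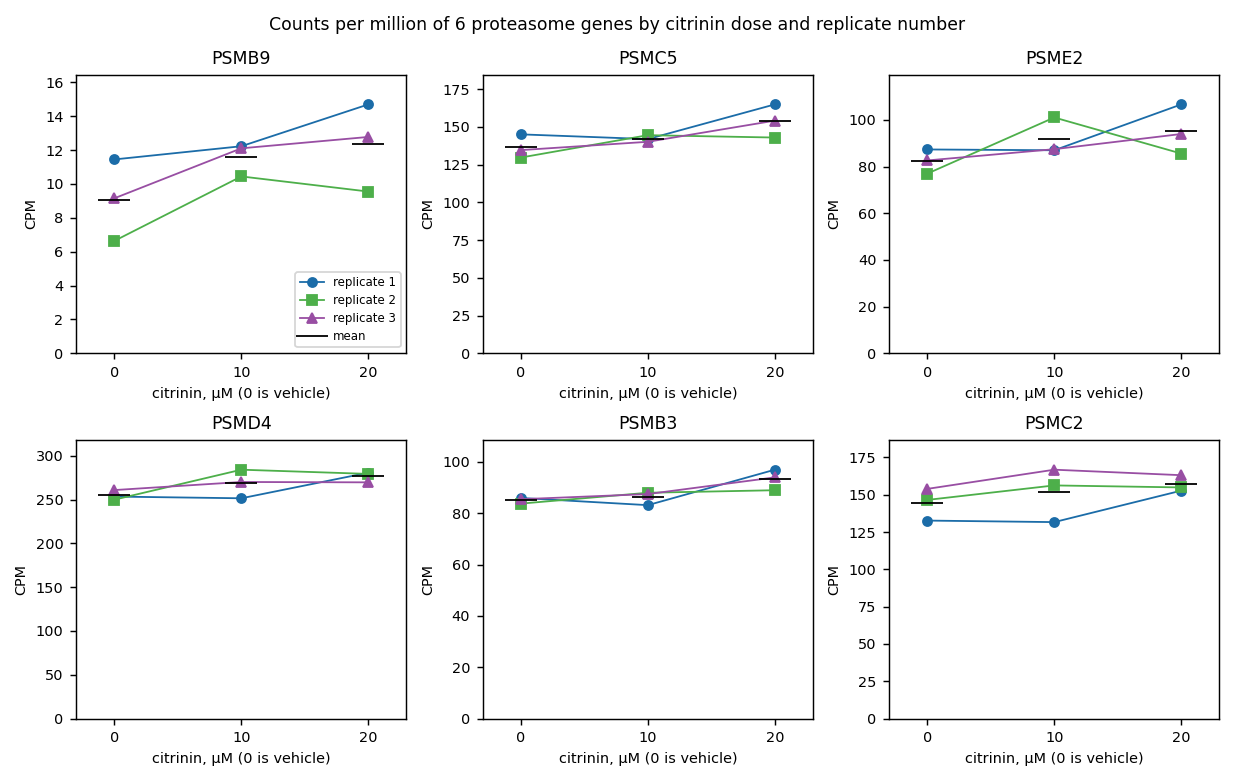
CPM of the 6 proteasome genes with the smallest p at 20 µM against vehicle (vertical axis from 0) by citrinin dose in µM (0 is vehicle); lines join libraries with the same replicate number and black bars are group means. The 20 µM library is the higher one in 3 of 3 pairs for each gene, while PSMD4 and PSMB3 alone have groups that do not overlap. The genes were chosen by p in the fit with the replicate block, which favours genes whose pairs agree.

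Promoter sequences of 4 of these 6 genes are shown because each holds the core of the antioxidant response element, the binding motif of NFE2L2 and NFE2L1. The sequences are RefSeq promoter windows on GRCh38.p14, from 250 bases before to 50 bases after an annotated start, printed 5′ to 3′ on the gene's strand. Capitals mark matches to TGACNNNGC on either strand. In GENCODE 29 the genes span chr6:32844136-32859585 for PSMB9 (ENSG00000240065), chr17:63827152-63832026 for PSMC5 (ENSG00000087191), chr14:24143362-24147570 for PSME2 (ENSG00000100911) and chr17:38752736-38764231 for PSMB3 (ENSG00000277791). PSMC2 has a window without a match, and PSMD4 was not in the table. The windows lie at chr6:32853942-32854241 (plus strand) for PSMB9, chr17:63827471-63827770 (plus strand) for PSMC5, chr14:24146561-24146860 (minus strand) for PSME2 and chr17:38752491-38752790 (plus strand) for PSMB3.
PSMB9: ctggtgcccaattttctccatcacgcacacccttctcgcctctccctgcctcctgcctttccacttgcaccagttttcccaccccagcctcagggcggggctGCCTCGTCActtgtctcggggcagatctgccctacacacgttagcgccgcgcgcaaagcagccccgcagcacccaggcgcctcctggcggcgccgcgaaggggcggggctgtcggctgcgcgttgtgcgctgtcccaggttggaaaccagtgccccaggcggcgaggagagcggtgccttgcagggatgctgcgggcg
PSMC5: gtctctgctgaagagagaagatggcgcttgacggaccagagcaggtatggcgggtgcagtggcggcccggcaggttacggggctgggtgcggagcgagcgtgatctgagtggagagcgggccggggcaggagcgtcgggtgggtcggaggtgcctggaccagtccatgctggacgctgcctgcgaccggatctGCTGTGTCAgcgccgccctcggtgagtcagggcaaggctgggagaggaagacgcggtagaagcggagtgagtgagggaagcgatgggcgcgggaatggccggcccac
PSME2: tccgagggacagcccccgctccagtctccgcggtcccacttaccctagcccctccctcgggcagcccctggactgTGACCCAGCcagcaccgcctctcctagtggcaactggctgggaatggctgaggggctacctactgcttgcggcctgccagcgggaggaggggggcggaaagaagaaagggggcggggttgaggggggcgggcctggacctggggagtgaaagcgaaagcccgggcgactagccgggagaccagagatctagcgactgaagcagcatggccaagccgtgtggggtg
PSMB3: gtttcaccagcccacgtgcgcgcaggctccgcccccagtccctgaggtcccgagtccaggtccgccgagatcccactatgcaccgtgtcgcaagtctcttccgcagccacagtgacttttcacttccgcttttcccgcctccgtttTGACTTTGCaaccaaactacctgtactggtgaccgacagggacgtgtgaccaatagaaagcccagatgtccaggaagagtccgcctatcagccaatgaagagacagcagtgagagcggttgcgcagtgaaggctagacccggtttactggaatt

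The match begins 148 bases before the start of the window's transcript in PSMB9, 57 before it in PSMC5, 175 before it in PSME2 and 104 before it in PSMB3. The windows of PSMB9, PSMC5 and PSME2 lie wholly inside the GENCODE 29 spans given above. Their starts are therefore alternative ones downstream of the outermost annotated start, and these matches lie within the annotated gene. Over the family, 15 of 51 windows held the core, or 29.4%, beside 13.4% of the 35116 windows of all genes. The latter include genes too low to be tested here. By gene, 15 tested members held the core and 25 did not, beside 2336 and 9813 of all tested genes with a window. The windows belonged to 42 of the 48 genes, and PSMA7, PSMB1, PSMB6, PSMB7, PSMD4 and PSMG3 had none. CCAAT was found in 39.2% of the family's windows and in 34.6% of all windows. CCGGAAG, an ETS factor motif, was found in 29.4% and 10.3%. All motifs were searched on both strands, and none of the 3 contains another. A match is a run of letters and not a bound site. At 20 µM against vehicle the median log2 fold change was 0.08 for the 15 tested members with the core, of which 11 were positive, and 0.07 for the 25 without it, of which 22 were positive. Over all genes it was 0.0096 with the core and -0.0018 without it. NQO1, the quinone reductase best known as a target of NFE2L2, averaged 179 ± 18.9 CPM at 20 µM and 90.9 ± 5.12 CPM in vehicle in the same libraries. Its log2 fold change of 0.98 ± 0.06 passed with the block (edgeR adjusted p = 1.21e-11) and did not without it (0.116). Whether NFE2L2 or NFE2L1 acts on the proteasome genes in these cells was not tested.

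Activators, inhibitor and chaperones are given whatever their p, as log2 fold changes at 20 µM against vehicle from the blocked fit; none passed. PSME1, the partner of PSME2, had 0.08 ± 0.05, and PSME3, which forms the nuclear activator, had 0.07 ± 0.05. PSME4, the large activator of nuclei and germ cells, had -0.03 ± 0.06. PSMF1, the inhibitor, had 0.01 ± 0.06. Among the chaperones of core assembly, PSMG1 had 0.15 ± 0.08, PSMG2 -0.04 ± 0.07, PSMG3 0.07 ± 0.08 and PSMG4 -0.02 ± 0.10. Of the constitutive catalytic subunits, PSMB5 had 0.10 ± 0.05, PSMB6 0.02 ± 0.06 and PSMB7 0.08 ± 0.05. Their immunoproteasome counterparts PSMB8 and PSMB10 had 0.07 ± 0.10 and 0.23 ± 0.24. Signs were positive for 7 of 7 alpha, 7 of 7 constitutive beta, 3 of 3 immunoproteasome, 5 of 6 ATPase and 9 of 11 non-ATPase genes. PSMB4, the most abundant transcript per length, had 0.03 ± 0.05.

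**Figure D4:**
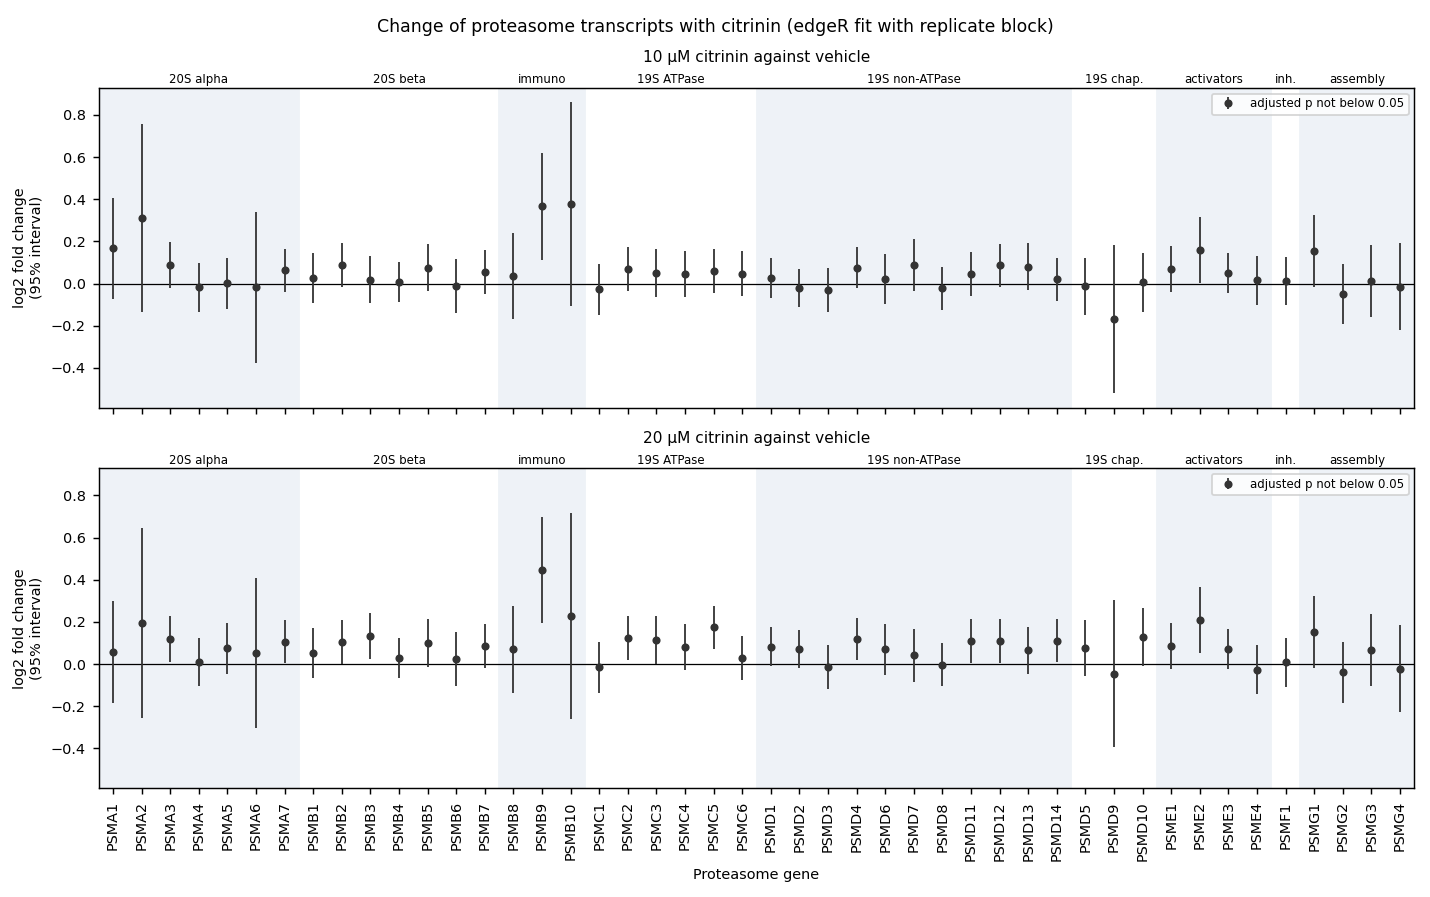
log2 fold change with its 95% confidence interval for the 46 tested proteasome genes, grouped by subcomplex, at 10 µM (upper) and 20 µM (lower) citrinin against the same vehicle libraries, from the edgeR fit with the replicate block. Positive values number 35 of 46 at 10 µM and 39 of 46 at 20 µM, and no gene has an adjusted p below 0.05.

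At 10 µM against vehicle no gene passed either. Of the 46 genes 0 were called without the block, beside 0.0% of all genes, and 0 with it, beside 0.0337% of all genes; DESeq2 and limma-voom also called 0. The unadjusted p was below 0.05 for 0 genes without the block, beside 0.646% of all genes, and for 2 with it, PSMB9 and PSME2, beside 3.59% of all genes. The log2 fold change was positive for 35 of 46 genes, beside 49.1% of all genes with the block, and its median was 0.04 over the family and -0.0019 over all genes. The pairs were unlike each other, with 18 genes higher in replicate 1, 39 in replicate 2 and 33 in replicate 3. PSMB9 had 12.2, 10.4 and 12.1 CPM in 10 µM replicates 1, 2 and 3, against 11.5, 6.63 and 9.15 CPM in vehicle, with overlap between the groups. Its log2 fold change was 0.37 ± 0.12, with an edgeR adjusted p of 0.9997, and it was higher in 3 of 3 pairs. PSME2 had 87.0, 101 and 87.4 CPM at 10 µM against 87.3, 76.95 and 82.6 CPM in vehicle, where replicate 2 carried most of the difference of 0.16 ± 0.07. PSMG1, an assembly chaperone, had 0.15 ± 0.08, PSMB2, a non-catalytic beta subunit, 0.09 ± 0.05, PSMD12, a scaffold of the 19S lid, 0.09 ± 0.05, and PSMA3, an alpha subunit, 0.09 ± 0.05. The groups did not overlap for 1 gene, PSMD7, beside 4.0% of all genes. Both doses were compared with the same vehicle libraries, so each vehicle value enters both differences, and for PSMB9 vehicle replicate 2 was the lowest of the 9 libraries.

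Between the doses, 20 µM against 10 µM, 0 of 46 genes were called without the block, beside 0.0% of all genes, and 0 with it, beside 0.444% of all genes; DESeq2 and limma-voom also called 0. The unadjusted p was below 0.05 for 0 genes without the block, beside 1.18% of all genes, and for 3 with it, PSMC5, PSMD2 and PSMB3, beside 8.81% of all genes. The median log2 fold change was 0.03 over the family, with 36 of 46 genes positive with the block and 37 without it, beside 49.5% and 49.7% of all genes. Here the pairs disagreed, with 39 genes higher at 20 µM in replicate 1, 12 in replicate 2 and 28 in replicate 3. PSMC5 had 165, 143 and 154 CPM at 20 µM and 142, 145 and 140 CPM at 10 µM, with 2 of 3 pairs higher and a log2 difference of 0.11 ± 0.05. PSMB3 had 97.0, 89.0 and 94.0 CPM at 20 µM and 83.2, 88.0 and 87.5 CPM at 10 µM, the one member without overlap, beside 4.87% of all genes, with a difference of 0.11 ± 0.05. PSMD2, a scaffold of the 19S base, had 0.09 ± 0.04, the chaperone PSMD10 0.12 ± 0.07, the deubiquitinase PSMD14 0.09 ± 0.05 and the chaperone PSMD5 0.09 ± 0.07. Without the block and without 10 µM replicate 1, PSMD2 turned to -0.024 and PSMD14 to -0.027, and PSMD2 was at -0.055 without 20 µM replicate 3.

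The replicate number separated these genes more than the dose did. Over the 46 genes it took up 59.0% of the variance of log2(CPM + 1) and the dose 16.1%, against 70.2% and 11.4% over all genes. Both shares hold noise between libraries, which was not subtracted. The family was steadier than most genes, with a median SD over the 9 libraries of 0.10 on that log2 scale against 0.18 for all genes. It ran from 0.04 for PSMB4 to 0.31 for PSMB9 and 0.41 for PSMB10. The part of read depth in this difference was not tested.

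Replicate 1 was set against replicates 2 and 3 with the dose in the model. Of the 46 genes, 20 passed, 9 higher and 11 lower in replicate 1, beside 41.5% of all genes (20.2% higher and 21.3% lower). The count was 11 without vehicle replicate 1 and 8 without all vehicle libraries. The median was -0.01 over the family and 0.0079 over all genes. Of the 11 non-ATPase subunits of the 19S particle 7 were lower in replicate 1 and none higher. PSMD2, which holds docking sites for substrate shuttles, had 250, 248 and 263 CPM in the vehicle, 10 µM and 20 µM libraries of replicate 1. In the same order of dose it had 306, 302 and 314 CPM in replicate 2 and 358, 348 and 383 CPM in replicate 3. The 3 replicate 1 libraries were the lowest of all 9 and the log2 difference was -0.40 ± 0.04 (edgeR adjusted p = 2.94e-09). PSMD12 averaged 109 ± 1.90 CPM in replicate 1 and 142 ± 8.90 CPM in replicates 2 and 3 (SD, n = 3 and n = 6 libraries), a difference of -0.37 ± 0.04 (edgeR adjusted p = 1.34e-07). PSMD14, the deubiquitinase that removes ubiquitin chains, averaged 87.5 ± 3.67 and 111 ± 4.69 CPM, a difference of -0.35 ± 0.04, and PSMD1, a base scaffold, 157 ± 8.86 and 196 ± 3.73 CPM, a difference of -0.33 ± 0.04. The ATPases PSMC1 (-0.29 ± 0.05) and PSMC2 (-0.18 ± 0.04) were also lower. For PSMD2, PSMD12, PSMD14, PSMD1 and PSMC1 the replicate 1 libraries lay below all others.

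Higher in replicate 1 were the chaperone PSMG3 (0.31 ± 0.07, edgeR adjusted p = 0.000852), the ATPases PSMC3 (0.19 ± 0.05) and PSMC4 (0.15 ± 0.05), the inhibitor PSMF1 (0.17 ± 0.05), PSMB9 (0.36 ± 0.10, edgeR adjusted p = 0.00658) and the catalytic PSMB5 (0.15 ± 0.05). PSMG3 averaged 36.9 ± 2.80 CPM in replicate 1 and 29.7 ± 2.23 CPM in replicates 2 and 3. In the whole family 10 genes were without overlap, 5 higher and 5 lower, beside 31.0% of all genes. Some calls did not hold when 1 library was left out, which also leaves fewer values for the test. The adjusted p of PSMB9 was 0.103 without vehicle replicate 1, that of PSMC4 0.108 without it and 0.0597 without 20 µM replicate 1, and that of PSMF1 0.0951 without 20 µM replicate 1. PSMB5 was at 0.0635, 0.192 and 0.0712 without vehicle replicate 1, 20 µM replicate 1 or 20 µM replicate 3, and PSMC2 at 0.0623 without 10 µM replicate 1.

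Replicate 3 against replicate 2 gave 1 call among the 46 genes, beside 11.7% of all genes. PSMD2 averaged 363 ± 17.9 CPM in replicate 3 and 307 ± 6.19 CPM in replicate 2 (SD, n = 3 libraries each), a log2 difference of 0.24 ± 0.04 (edgeR adjusted p = 0.00032). The groups did not overlap for 6 genes, beside 27.4% of all genes. The count of calls was 2 without 10 µM replicate 1, 4 without 10 µM replicate 2 and 3 without 20 µM replicate 1. The immunoproteasome genes were all positive without passing, PSMB8 at 0.23 ± 0.10, PSMB9 at 0.36 ± 0.12 and PSMB10 at 0.61 ± 0.24. PSMB9 averaged 11.3 ± 1.93 CPM in replicate 3 and 8.88 ± 1.99 CPM in replicate 2. Markers moved with the replicate numbers as well. The mesenchymal list summed to 4799 to 5018 CPM in replicate 1, 3424 to 3844 CPM in replicate 2 and 5126 to 5527 CPM in replicate 3. The sympathetic list summed to 3385 to 3717, 3189 to 3927 and 2549 to 3114 CPM in replicates 1, 2 and 3. The immune list stayed at or below 3.55 CPM. Their part in the replicate differences was not tested.

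**Figure D5:**
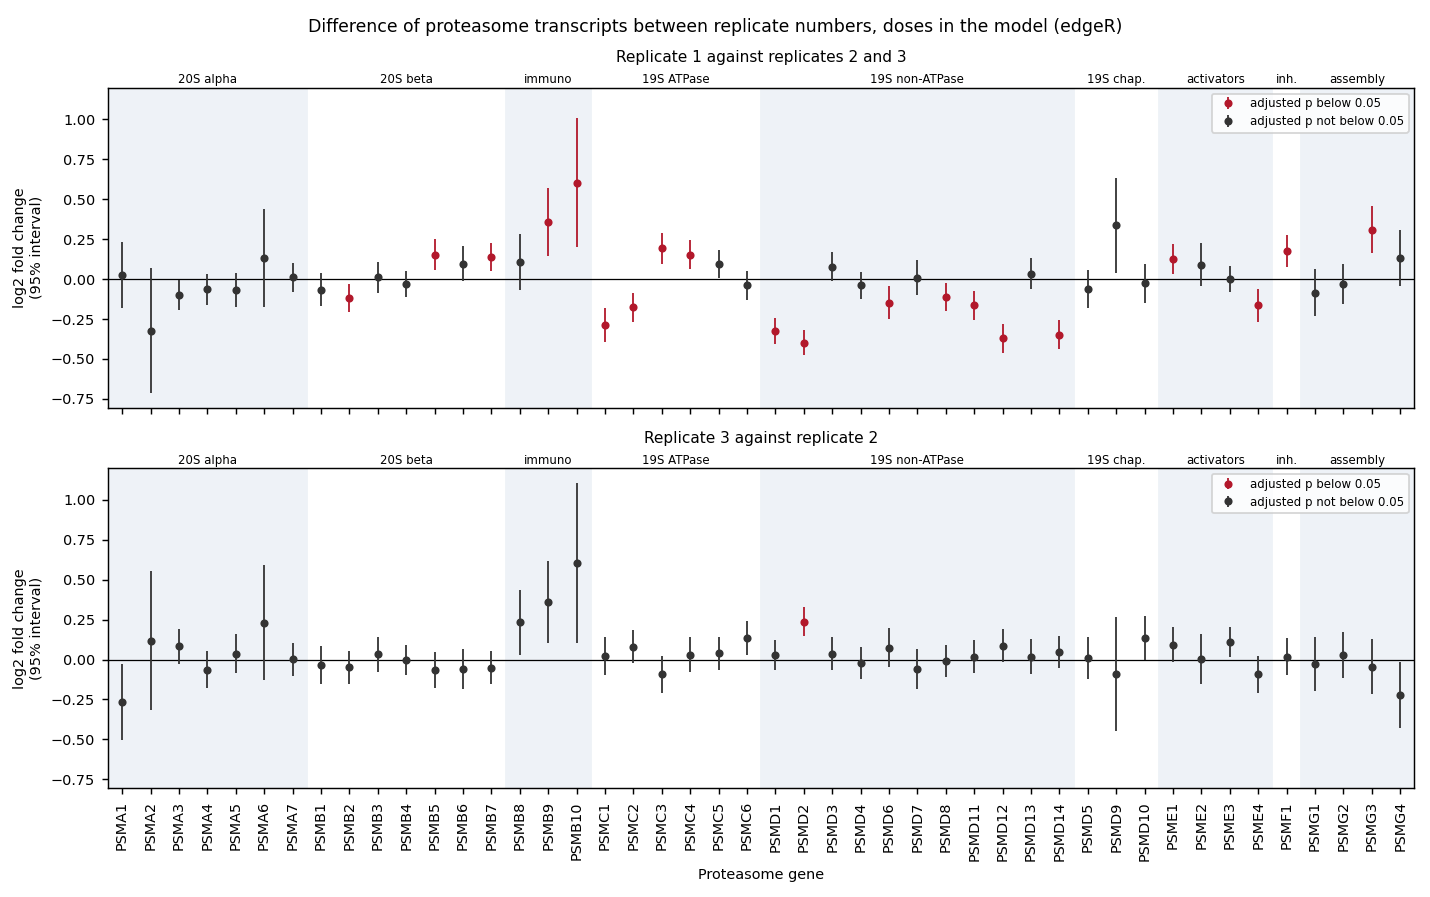
log2 difference with its 95% confidence interval for the 46 tested proteasome genes between replicate numbers, with the dose in the model (edgeR): replicate 1 against replicates 2 and 3 (upper) and replicate 3 against replicate 2 (lower). Red marks an adjusted p below 0.05, for 20 genes above, 7 of them lower non-ATPase subunits, and for PSMD2 alone below.

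Other genes of the pathway were counted in the same way at 20 µM against vehicle. Over all genes 2.21% were called with the block and 0.0% without it. In lists this short a count of 0 or 1 with the block lies near the share of all genes. Of 15 genes of proteasome-associated proteins, such as the deubiquitinases USP14 and UCHL5 and the maturation factor POMP, 0 passed with the block (median 0.06). Of 12 regulators of proteasome transcription 0 passed (median 0.04), and NFE2L1 averaged 350 ± 14.9 CPM at 20 µM and 370.4 ± 5.82 CPM in vehicle (-0.08 ± 0.04). Of 20 genes that supply ubiquitin or deliver substrates 1 rose and none fell (median 0.01). That gene was SQSTM1, a cargo receptor of autophagy, with 300.5 ± 36.4 CPM at 20 µM and 245 ± 38.2 CPM in vehicle (0.30 ± 0.05, edgeR adjusted p = 0.000229 with the block), and without the block it did not pass. Of 14 genes of antigen processing that interferon induces along with PSMB8, PSMB9 and PSME2, 0 passed (median 0.03). At 10 µM against vehicle none of these 4 lists held a gene that passed, beside 0.0337% of all genes with the block and 0.0% without it. Among the antigen processing genes 5 of 14 were higher and none lower in replicate 1 than in replicates 2 and 3, and 8 were higher and none lower in replicate 3 than in replicate 2. Over all genes 20.2% were higher and 21.3% lower in the first of these comparisons and 11.7% were called in the second. The sum of the 14 genes was 1171 to 1261 CPM in replicate 1, 1096 to 1128 CPM in replicate 2 and 1258 to 1294 CPM in replicate 3. USP14 (-0.35 ± 0.04) and POMP (-0.34 ± 0.06) were lower in replicate 1. They were among 6 lower and 1 higher of the 15 associated genes, beside 21.3% lower and 20.2% higher over all genes. Counted in either direction, the share called was near the 41.5% of all genes.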

How the data were processed

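Total RNA of SH-SY5Y cells was sequenced in 9 libraries, 3 per dose, grouped and numbered by their titles. Nothing in the labels ties replicates to separate cultures, and p-values thus reflect only how these samples vary, which may be technical. Per the submitters' processing notes, FastQC, cutadapt, STAR and edgeR were used with GRCh38, with versions and gene annotation not given in the sources used here. Raw counts per gene from STAR were deposited, without multimapping reads (2.22% to 2.61%) and without reads ambiguous between genes (9.51% to 10.1%); 76.4% to 78.0% of reads were assigned. The joint count of both strands was used, since strands were equally frequent (ratio 1.007 to 1.020). The authors also deposited a table of log2 CPM, recomputed here from the counts to within 1e-06 for 100% of its values.

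Genes passing filterByExpr (17806) were fitted on all 9 libraries with edgeR 4.0.16 (R 4.3.3) using TMM factors (0.990 to 1.013), robust quasi-likelihood and Benjamini-Hochberg adjustment over all genes. The main fit held 3 groups (6 residual degrees of freedom) and the other added the replicate number as a block (4). The numbers, from the titles, were taken to pair the samples because all 9 same-numbered pairs correlated above 0.1 in their deviations from the group means, and 9 of 9 libraries were closest to their own number. Replicates within a group all differed beyond sampling noise (lowest chi-square over its degrees of freedom 8.66). Replicate differences come from the blocked model. Alternatives were DESeq2 1.42.0, limma 3.58.1 (voom, and log2(CPM + pseudocount) with 1 or 0.1), other scaling, no filter and left-out libraries. Gene lengths and coordinates came from GENCODE 29 (GRCh38), where 58312 of 61487 identifiers were found, and promoters from RefSeq on GRCh38.p14. The code was tested on simulated data. The members and lists were chosen with earlier results of these data known. Named in each dose comparison are the 6 members with the smallest p in the blocked fit where none passed, in each replicate comparison up to 6 per direction that passed, and always the catalytic pairs, PSME, PSMF and PSMG genes, PSMA8, PSMB11 and the highest and lowest levels.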

Additional observations from a re-analysis of the deposited data

How the results depend on the processing

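At 20 µM against vehicle, the count of proteasome genes called was 0 in 27 of 33 alternatives. With the replicate block it was 1 with library totals as the scale, 3 with no filter on low counts, 1 without all libraries of replicate number 2, and 0 to 3 with 1 library left out; without the block it was 0 throughout. The genes called were PSMB9, PSMC5 and PSME2. The median log2 fold change of the family was positive in 33 of 33 alternatives (0.04 to 0.10); at 10 µM against vehicle it was positive in 33 of 33 (0.0061 to 0.086), and between the doses in 30 of 33 (-0.017 to 0.082). At 10 µM against vehicle and between the doses, 0 genes were called under every alternative. With 1 library left out and no block, the log2 fold change of PSMD12 at 10 µM ran from -0.011 to 0.20, and between the doses that of PSMD2 from -0.055 to 0.22 and that of PSMD14 from -0.027 to 0.19. Their lowest values came without vehicle replicate 1, 20 µM replicate 3 and 10 µM replicate 1. In replicate 1 against replicates 2 and 3, the count of 20 became 8 without all vehicle libraries and 11 to 22 with 1 library left out. In replicate 3 against replicate 2 it was 3 without all 10 µM libraries and 1 to 4 with 1 library left out. The immunoproteasome share of 6.57% became 11.5% per length of the transcript with the longest coding sequence, and 7.205% and 6.998% from the counts of either strand. The cause of these shifts was not tested, beyond the fewer libraries or other lengths used. Depth limits PSMA2, PSMA6, PSMB10 and PSMD9 most, at 804 reads or fewer over 9 libraries.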
